A study of Mus musculus with 2 samples.

Results

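The immediate early and dissociation response genes followed here are 36 of the 27998 mouse genes counted in 2 single-cell RNA libraries, and they were chosen by symbol as rows of both count matrices. They comprise 4 FOS, 3 JUN, 3 EGR, 3 NR4A and 5 KLF transcription factors, the factors Atf3, Myc, Maff and Csrnp1, 4 MAP kinase phosphatases, the RNA-binding proteins Zfp36 and Zfp36l1, and 8 growth-arrest and signalling genes. All 36 were found in both libraries. For each the level was taken per cell class, fibroblast subset and library as UMI counts scaled to a sum of 1000000 (CPM), where a UMI is a molecular tag that counts 1 RNA molecule once. The share of cells with at least 1 UMI and the summed percent of a cell's UMIs from all 36 genes were taken as well.

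The study set fibroblasts of pancreatic tumours against mesenchymal cells of healthy pancreas, with pancreatic stellate cells as the proposed cell of origin. Both libraries were made from Rosa26-mTmG;Fabp4-Cre mice, in which Cre under the Fabp4 promoter turns on membrane GFP in cells of that lineage and in their descendants. In the tumour library, FC1245 pancreatic cancer cells had been implanted into the pancreas of mice aged 8 weeks, and GFP-positive, PDPN-positive cells were sorted 21 days later. That tissue was held at 37 °C for 1 h in collagenase IV, dispase and DNase and then for 10 min in trypsin, 70 min in all. In the normal library, pancreas of mice aged 6 to 9 weeks was held at 37 °C in pronase, collagenase P and DNase for 10 min and then 5 min, 15 min in all, and GFP-positive cells were sorted with no PDPN gate. Tumour, digestion, gate, age and library therefore cannot be told apart in any comparison below, and the labels do not say how many mice each library holds. Sex was not matched between the libraries either, as judged below from Xist and Y-linked UMIs. Each group is 1 library, so no comparison has a replicate check and no p-value is given. Intervals are exact 95% intervals and cover counting error only.

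The cells used were 2520 of 2942 tumour barcodes, with a median of 10156 UMIs, and 4504 of 5437 normal barcodes, with a median of 7035 UMIs. Fibroblast-like cells, named from 8 markers such as Col1a1, Dcn and Pdgfra, were 2201 tumour cells (87.3%) and 1484 normal cells (32.9%), with median depths of 10392 and 9038 UMIs. All 8 markers had a UMI in at least 25% of the fibroblast-like cells of either library. Most other normal cells were endothelial-like (1346) or macrophage-like (1131), against 6 and 4 tumour cells, so those classes were not compared. Fabp4, whose promoter drives the lineage mark, had 63.3 CPM in tumour and 172 CPM in normal fibroblast-like cells, with a UMI in 15.6% and 15.3% of them. Pdpn, the gene of the gate, had 429 CPM in tumour and 151 CPM in normal fibroblast-like cells. The libraries shared 4 barcodes, 2 of them among the cells used.

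Immediate early genes are transcribed within minutes of a growth factor, stress or calcium signal without new protein synthesis, and their transcripts are short-lived. Serum response factor, CREB and the ERK, JNK and p38 kinases act on their promoters, and many of their products are themselves transcription factors, phosphatases or RNA-binding proteins that shape or end the response. Enzymatic dissociation of tissue at body temperature is known to raise the same genes, so that in freshly isolated cells a response to digestion and a response present in the tissue can look alike.

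RefSeq promoter windows on GRCm38.p6, which run from 250 bases before to 50 after each gene start, were at hand for 30 of the 36 members. Egr1, Egr3, Fosl1, Klf10, Myc and Ier2 had none and were not searched. Short stretches are shown for members whose windows hold an element through which serum response factor or CREB is known to act, since these elements link the signal to the gene. Serum response elements (CArG boxes), which bind serum response factor, are in capitals in the first 3, each read along the gene's own strand.
Dusp5, chr19:53529043-53529102, plus strand: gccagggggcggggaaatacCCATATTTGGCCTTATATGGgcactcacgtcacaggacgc
Zfp36, chr7:28379257-28379306, minus strand: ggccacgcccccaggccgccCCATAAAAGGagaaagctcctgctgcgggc
Egr2, chr10:67537474-67537523, plus strand: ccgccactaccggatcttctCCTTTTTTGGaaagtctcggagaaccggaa
Cyclic AMP response elements, which bind CREB and related bZIP factors, are in capitals in the next 3 as the full element TGACGTCA.
Dusp1, chr17:26508588-26508635, minus strand: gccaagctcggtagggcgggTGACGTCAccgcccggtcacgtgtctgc
Btg2, chr1:134079294-134079341, minus strand: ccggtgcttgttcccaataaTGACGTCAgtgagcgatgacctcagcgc
Maff, chr15:79347471-79347518, plus strand: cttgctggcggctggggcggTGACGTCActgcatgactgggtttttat
Within their windows, Fos and Nr4a2 hold only the short form TGACG of this element, also in capitals. In Nr4a2 it lies on the other strand and so reads CGTCA here.
Fos, chr12:85473741-85473848, plus strand: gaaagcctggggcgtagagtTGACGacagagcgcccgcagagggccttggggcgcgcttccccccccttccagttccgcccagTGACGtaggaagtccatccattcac
Nr4a2, chr2:57124179-57124223, minus strand: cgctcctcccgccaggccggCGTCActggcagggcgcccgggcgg
The Dusp5 stretch has 2 CArG boxes end to end. Searched on both strands, a CArG box was in the windows of 3 of 30 members (10.0%: Dusp5, Zfp36 and Egr2), against 1.81% of 27025 genes with a window. TGACGTCA was in 3 of 30 members (10.0%), against 2.03% of genes, and its short form TGACG, which every full element also contains, in 18 of 30, against 23.0% of genes. The AP-1 element TGANTCA, bound by FOS and JUN dimers, was in 3 of 30 members (10.0%: Klf9, Csrnp1 and Zfp36l1), against 8.97% of genes. The EGR element GCGTGGGCG was in 1 of 30 (Maff), against 0.707% of genes. A match is a string of letters and not a shown binding site. Bases outside the windows were not searched, so a gene without a match may hold an element elsewhere.

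In fibroblast-like cells, 18 of the 33 members that reached 50 CPM in either library had a ratio of tumour to normal of 2 or more with an interval that excluded 1, and such genes are called higher below. By the same rule 9.39% of the 3633 genes that reached that level were called higher. Only Dusp6 was called lower, against 10.7% of those genes. Over the 34 members that reached 20 CPM in either library, the median log2 fold of tumour over normal was 1.31, and over all 6821 such genes it was -0.25. The 36 members summed to 31938 CPM in tumour and 18541 CPM in normal fibroblast-like cells, or 3.19% and 1.85% of all UMIs. Fosl1, Egr3 and Dusp2 were under 50 CPM in both. Scaling by trimmed mean of M-values (TMM) in place of the total raised every log2 fold by 0.31, with 14.3% of all genes then called higher and 5.62% lower. With TMM scaling 20 members were called higher and 1 lower.

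**Figure D1:**
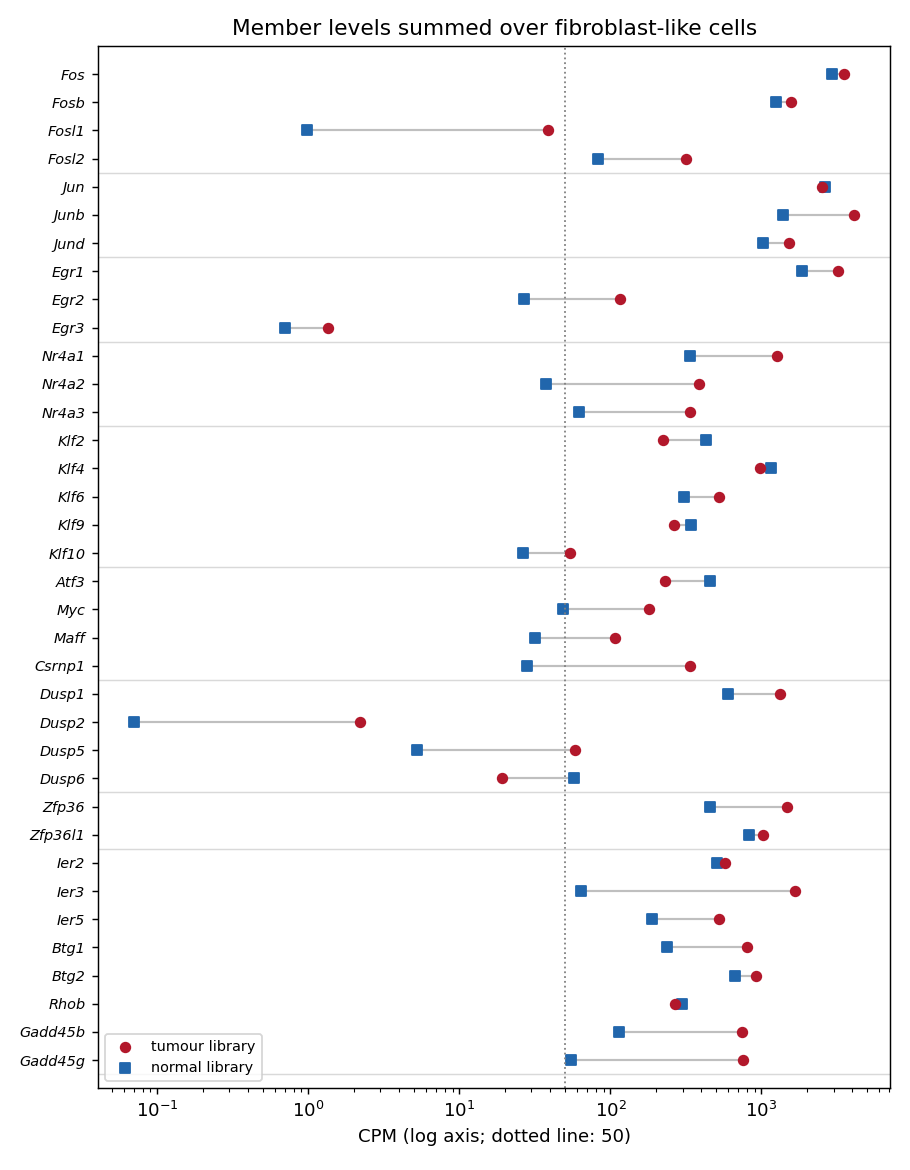
Level of each of the 36 members summed over fibroblast-like cells, in CPM on a log axis, with 1 circle for the tumour library and 1 square for the normal library and members in the order of their families. Fos and Jun nearly coincide at 2509 to 3507 CPM in the tumour and 2632 to 2935 CPM in the normal library, whereas Ier3 lies at 1662 CPM in the tumour and 63.8 CPM in the normal library.

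The classic FOS genes differed less between the libraries than the FOS-related antigens. Fos, the partner of JUN proteins in the AP-1 dimer, had 3507 CPM in tumour and 2935 CPM in normal fibroblast-like cells, a ratio of 1.195 (interval 1.18 to 1.21). Fosb, its close relative, had 1569 and 1257 CPM in the same order, a ratio of 1.25. Neither was called. Fosl2 (Fra-2), a later and longer-lived FOS protein, had 316 CPM in tumour and 82.9 CPM in normal cells and was 3.81-fold higher (3.58 to 4.05). Fosl1 (Fra-1) had 1080 UMIs in tumour cells and 14 in normal cells, or 38.5 and 0.980 CPM, a ratio of 39.3 (23.3 to 72.1) that lay under the level for a call. Fosl1 and Fosl2 made up 0.709% and 5.81% of FOS-family UMIs in tumour cells, against 0.0229% and 1.94% in normal cells.

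Within the JUN family the most counted member differed between the libraries. Junb, which dampens AP-1 activity at many sites, had 4127 CPM in tumour and 1389 CPM in normal cells and was 2.97-fold higher (2.93 to 3.02). Jun, the main activating partner, had 2509 and 2632 CPM, a log2 ratio of -0.07 that became 0.24 with TMM scaling. Jund, the least inducible of the family, had 1529 CPM in tumour and 1022 CPM in normal cells, a ratio of 1.496. Junb gave 50.5% of JUN-family UMIs in tumour cells and 27.6% in normal cells, while Jun gave 30.7% in tumour cells and 52.2% in normal cells. These are 3′ tag counts, 1 per molecule, and are not scaled by transcript length.

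All 3 NR4A genes, orphan nuclear receptors that act without a known ligand, were called higher. Nr4a1 (Nur77) had 1258 CPM in tumour and 337 CPM in normal cells, a 3.73-fold difference (3.62 to 3.84). Nr4a2 (Nurr1) had 389 CPM in tumour and 37.5 CPM in normal cells and was 10.4-fold higher (9.51 to 11.3). Nr4a3 (Nor1) was 5.44-fold higher, with 339 CPM in tumour and 62.2 CPM in normal cells. After each cell was thinned to 5000 UMIs, 94.0% of 1838 tumour cells and 43.7% of 1345 normal cells had a UMI of Nr4a1, which was 96.1% and 50.5% before thinning. For Nr4a2 the thinned shares were 49.9% of tumour and 6.62% of normal cells. Of the acinar-like cells, 6.67% of 15 in the tumour library and 11.8% of 17 in the normal library had an Nr4a1 UMI before thinning. Their median depths were 6801 and 13268 UMIs. Their median mitochondrial percents were 0.0161% and 0.104%, against 2.28% and 2.41% in fibroblast-like cells. These few barcodes are thus unlike the other cells and do not measure free RNA, whose part was not tested.

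The EGR and KLF families were divided. Egr1, a zinc finger factor induced by serum and stress, had 3201 CPM in tumour and 1855 CPM in normal cells, a ratio of 1.73 that was under 2 and so not called. Its log2 fold of 0.79 passed 1 under 6 alternative settings, among them thinning (1.09) and TMM scaling (1.09). Egr2, a relative known for its role in myelination, holds the CArG box shown above. It had 116 CPM in tumour and 26.7 CPM in normal cells and was 4.34-fold higher (3.91 to 4.84). Egr3, which follows calcium signals in neurons and lymphocytes, had 38 UMIs in tumour and 10 in normal cells. Among the Krüppel-like factors, Klf10, a target of TGF-β, was called higher at 53.7 CPM in tumour and 26.5 CPM in normal cells. Its ratio of 2.03 was close to the limit, and the call was lost at a finer clustering (log2 fold 1.00) and against normal female cells alone (0.96). Klf6, which is induced by injury in liver stellate cells, had 523 CPM in tumour and 308 CPM in normal cells, a ratio of 1.70.

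Klf2, Klf4, Klf9 and Atf3 had ratios under 1 and were not called. Klf2, known as a quiescence factor of endothelium, had 223 CPM in tumour and 431 CPM in normal cells, a ratio of 0.517. Atf3, a stress-induced bZIP repressor, had 231 CPM in tumour and 456 CPM in normal cells, a ratio of 0.507. Both passed the limit in cells with a Pdpn UMI (log2 fold -1.23 for Klf2 and -1.18 for Atf3) and against normal male cells alone (-1.11 and -1.22). Klf4, a partner of Klf2 in many cells, had 974 CPM in tumour and 1152 CPM in normal cells, and Klf9, a glucocorticoid-induced factor, had 264 and 339 CPM. With TMM scaling the log2 fold of Klf4 was 0.07 in place of -0.24, and that of Klf9 -0.06 in place of -0.36. For Atf3 the share of cells and the sum ran in opposite directions, since 47.9% of thinned tumour cells and 29.96% of thinned normal cells had a UMI.

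The other factors were called higher. Csrnp1, a nuclear protein induced by AXIN, had 335.5 CPM in tumour and 28.01 CPM in normal cells, a 12.0-fold difference (10.8 to 13.3). Myc, the growth regulator, had 179 CPM in tumour and 48.3 CPM in normal cells and was 3.71-fold higher. Maff, a small MAF protein without an activating domain, had 107 and 31.8 CPM in the same order and was 3.37-fold higher.

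The MAP kinase phosphatases, which end ERK, JNK and p38 signalling, split by gene. Dusp1, the nuclear phosphatase of p38 and JNK, had 1316 CPM in tumour and 600.5 CPM in normal cells and was 2.19-fold higher (2.14 to 2.24). Against normal male cells alone it was no longer called (log2 fold 0.97). Dusp5, a nuclear ERK phosphatase with the paired CArG boxes shown above, had 58.6 CPM in tumour and 5.25 CPM in normal cells and was 11.2-fold higher (8.86 to 14.3). Without the tumour cells of the Lrrc15-led subset it fell under the level for a call, with a log2 fold of 3.02. Dusp6, the cytoplasmic ERK phosphatase, had 19.2 CPM in tumour and 57.8 CPM in normal cells, a ratio of 0.333 (0.298 to 0.371), and stayed lower under every alternative run (log2 fold -1.60 to -1.25). Dusp2, best known in activated lymphocytes, had 62 UMIs in tumour cells and 1 in normal cells, a ratio of 31.6 with an interval of 5.46 to 1267. Dusp6 gave 1.38% of the phosphatase UMIs in tumour cells and 8.71% in normal cells.

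Of the RNA-binding proteins, Zfp36 (tristetraprolin), which destabilises short-lived transcripts through AU-rich elements, had 1477 CPM in tumour and 453 CPM in normal cells and was 3.26-fold higher (3.17 to 3.34). Its relative Zfp36l1 had 1030 and 833 CPM, a ratio of 1.24. Ier3 (IEX-1), a stress-induced survival gene at chr17:35821684-35822923, had the largest fold of the 33 members tested: 1662 CPM in tumour and 63.8 CPM in normal cells, or 26.1-fold (24.4 to 27.9). A UMI of Ier3 was found in 88.6% of thinned tumour cells and 14.1% of thinned normal cells (89.5% and 19.9% before thinning), against 8.33% of 12 and 6.67% of 15 acinar-like cells in the tumour and normal library. Ier5, a partner of the heat shock factor HSF1, was 2.78-fold higher, at 527 CPM in tumour and 189 CPM in normal cells, and Ier2, a nuclear immediate early protein, was not called at 577 and 510.5 CPM.

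The growth-arrest genes Gadd45b and Gadd45g, which bind and activate the p38 kinase kinase MEKK4, were both called higher. Gadd45b had 738 CPM in tumour and 114 CPM in normal cells (6.46-fold), and Gadd45g, at chr13:51846678-51848468, had 749 CPM in tumour and 55.0 CPM in normal cells (13.6-fold). Btg1, an antiproliferative gene, was 3.41-fold higher with 802 CPM in tumour and 235 CPM in normal cells. Its relative Btg2 had 923 and 669.5 CPM, a ratio of 1.38, and the small GTPase gene Rhob had 268 and 296 CPM, a log2 ratio of -0.14 that became 0.16 with TMM scaling. Of the 33 tested members 26 had a ratio over 1.

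Counted cell by cell, the members took a larger share of the transcriptome in tumour fibroblast-like cells. The median was 3.58% of a cell's UMIs in the tumour library (quartiles 2.60 to 4.62) and 1.18% in the normal library (0.693 to 2.48). Thinned to 5000 UMIs the medians were 3.51% in 1838 tumour cells and 1.24% in 1345 normal cells. Thinning left out 363 tumour and 139 normal fibroblast-like cells. At that depth a tumour cell held a median of 24 of the 36 members and a normal cell 15. The distributions overlapped, with 95.6% of tumour cells above the normal median and 24.8% above the 95th percentile of normal cells. In the other direction, 52.3% of normal cells lay below the 5th percentile of tumour cells. Acinar-like cells had medians of 0.0664% in the tumour and 0.0193% in the normal library.

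The subsets of fibroblast-like cells, clustered without the members, differed within each library. In the tumour library the subset led by Lrrc15, with Cthrc1, Tnc and Inhba among its top 10 genes, had a median of 2.08% (324 cells), below the lower quartile of each of the other 3 tumour subsets. The subsets led by Thbs4, by Hp and Ptx3, and by Apod had medians of 3.87% (675 cells), 3.72% (607 cells) and 3.98% (568 cells), and their quartile ranges overlapped. The Lrrc15-led cells were also the deepest, with a median of 26426 UMIs against 7395 to 10828, and after thinning their median was 2.11%. In the normal library the subset led by Gm12022 and Tenm4 had a median of 1.01% (957 cells), that led by Efhd1 2.11% (459 cells), and that led by Hp 3.36% (61 cells). Depth therefore moved with the subsets, and its part in the full-depth values was not tested beyond the thinned medians.

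**Figure D2:**
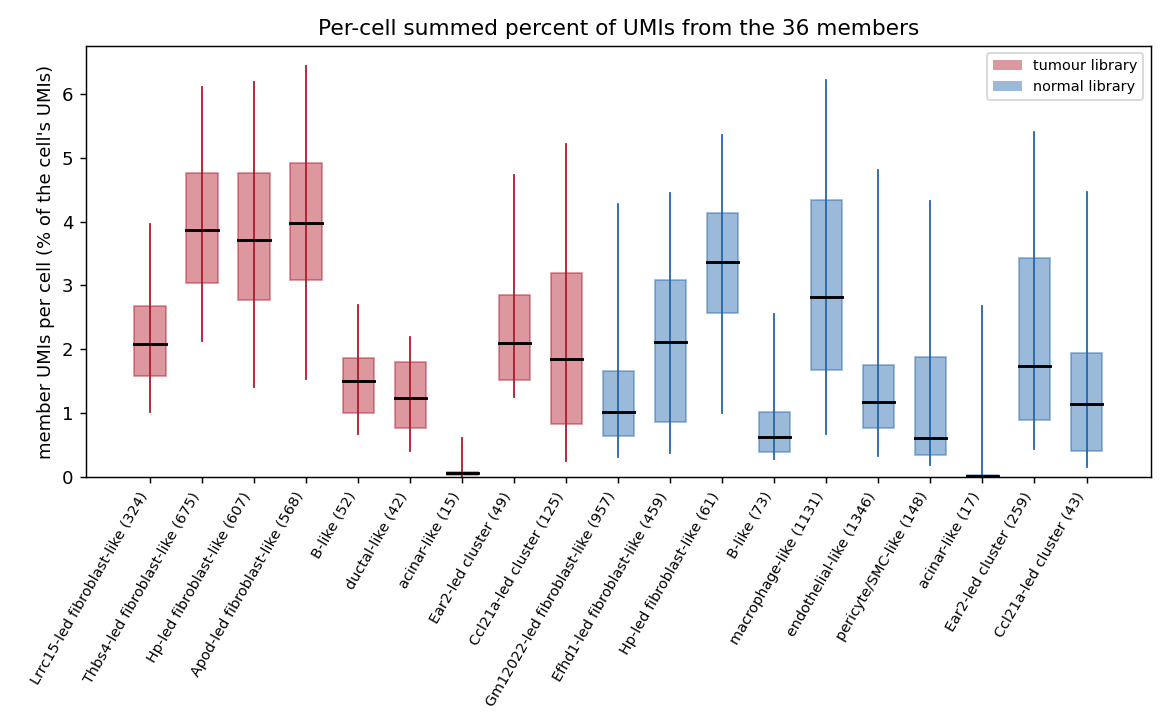
Summed percent of each cell's UMIs from the 36 members, by subset of fibroblast-like cells and by other cell population, with the number of cells in brackets, the tumour library in red on the left and the normal library in blue on the right. Boxes span the quartiles, the black line is the median and the thin line runs from the 5th to the 95th percentile. The Lrrc15-led tumour cells sit at 2.08%, the other tumour subsets at 3.72% to 3.98%, and the normal subsets at 1.01% to 3.36%.

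Single members traced these subsets. In Lrrc15-led tumour cells 11 of 32 tested members were at least 2-fold lower than in the other tumour fibroblast-like cells, where 8.38% of genes were called lower. They were Fos, Egr1, Klf10, Atf3, Myc, Maff, Zfp36, Zfp36l1, Ier2, Gadd45b and Gadd45g, and Gadd45g had 300.04 CPM in Lrrc15-led cells against 949 CPM in the rest. Dusp5 was the 1 member called higher there (5.90% of genes), with 95.03 CPM against 42.5 CPM. Ier3 did not follow the sum: it had 1985 CPM in Lrrc15-led, 2032 CPM in Thbs4-led, 1375 CPM in Hp-led and 888 CPM in Apod-led cells.

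The other 3 tumour subsets had few calls. In Thbs4-led cells Gadd45b was called higher (1183 against 567 CPM in the rest) and Dusp5 lower (33.5 against 68.3 CPM), where 2.49% of genes were called higher and 4.25% lower. In Hp-led tumour cells Atf3 was called higher (380 against 181.5 CPM) and no member lower, where 5.21% and 5.62% of genes were called in those directions. In Apod-led cells no member was called higher (5.57% of genes) and Ier3 was called lower (5.26% of genes). With 32 or 33 members tested in each, those shares of members are near or under the background.

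In the normal library the calls were more numerous. In Gm12022-led cells 14 of 30 tested members were lower than in the other normal fibroblast-like cells (7.90% of genes), and only Dusp6 was higher (8.66% of genes), with 78.3 against 34.3 CPM. Atf3 had 93.0 CPM in Gm12022-led cells against 870.4 CPM in the rest, Nr4a2 8.28 against 70.75 CPM, and Maff 6.83 against 60.3 CPM. In Efhd1-led cells 8 of 29 members were higher (6.76% of genes): the 3 NR4A genes, Klf2, Klf4, Atf3, Maff and Ier3. Klf4 had 1964 CPM there against 598 CPM in the rest. Btg1 and Dusp6 were lower in Efhd1-led cells (8.45% of genes). These contrasts share cells, since each subset forms part of the rest of another.

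The Hp-led cluster was the 1 fibroblast-like cluster with at least 50 cells in both libraries. Its 61 normal cells had 19 of 32 tested members at least 2-fold higher than the other normal fibroblast-like cells (10.5% of genes) and 0 lower (11.7% of genes). Gadd45g had 411 CPM in them against 33.6 CPM in the other normal cells, and Csrnp1 had 147 against 20.9 CPM. Which normal cells fall in this cluster depends on the clustering. The cluster that shares most of its leading genes held 13 to 30 normal cells under the 5 other clusterings, 7 to 24 of them among these 61. Those cells had 11 to 21 of 31 tested members higher and 0 lower, with median member percents of 2.17% to 3.90%. The share of all genes called was not taken for those 13 to 30 cells, so these counts have no background to be read against. Set beside the 607 tumour cells of the same cluster, the normal cells were not lower throughout. Fos had 3740 CPM in Hp-led tumour cells and 4921 CPM in Hp-led normal cells, Atf3 had 380 and 1619 CPM, and Klf2 had 197 and 1019.5 CPM. Ier3 had 1375 CPM in Hp-led tumour cells and 216 CPM in Hp-led normal cells, and Nr4a2 had 339 and 101 CPM.

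**Figure D3:**
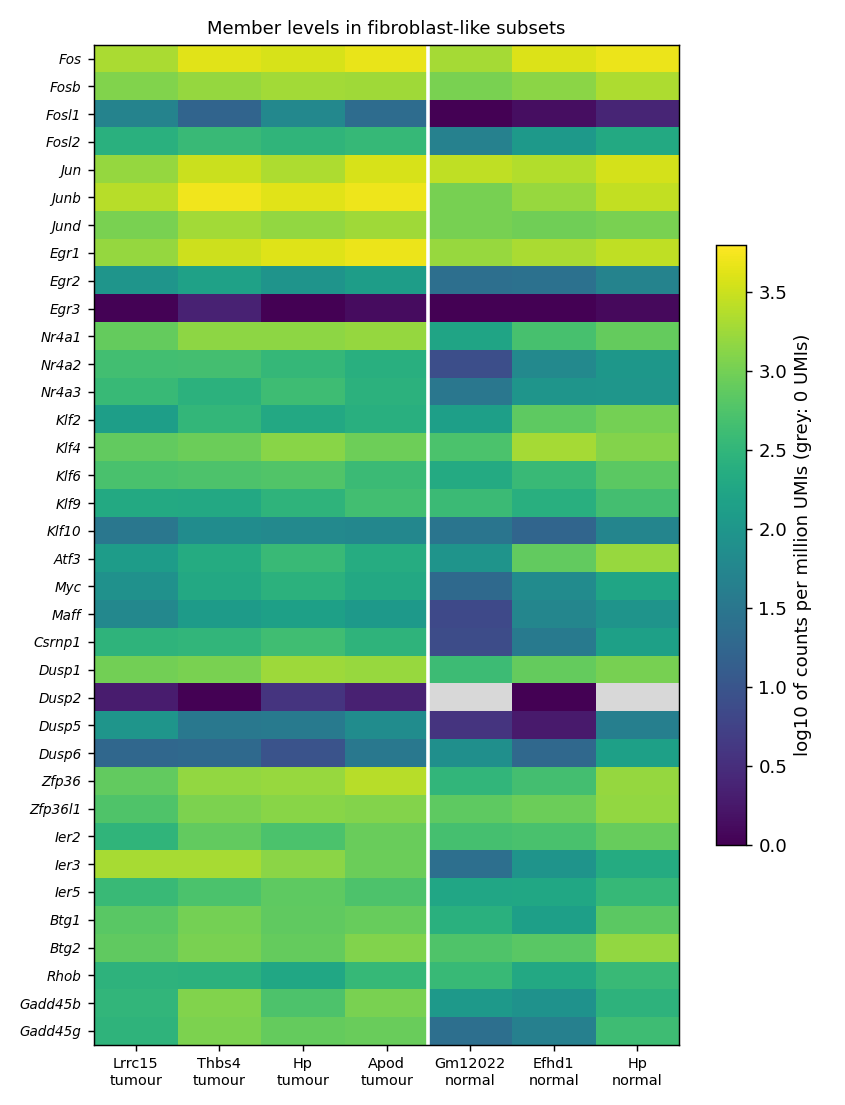
Levels of the 36 members in each subset of fibroblast-like cells with at least 50 cells of its library, as log10 of CPM, with the 4 tumour subsets on the left of the white line and the 3 normal subsets on the right. Dark columns mark low levels, as in the Gm12022-led normal cells, where Nr4a2 had 8.28 CPM and Maff 6.83 CPM, levels under 1 CPM share the darkest colour, and grey cells mark genes with 0 UMIs.

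Cells of other classes went through the same digestion as the fibroblasts of their library, so their values are given side by side. In B-like cells (52 tumour and 73 normal cells) 6 of 24 tested members were called higher in the tumour library, where 9.07% of genes were, and 5 lower, where 8.12% were. The median log2 fold of members was 0.13. Btg1, which is abundant in lymphocytes, had 4871 CPM in tumour and 720.5 CPM in normal B-like cells. Junb had 2096 and 614 CPM, and Nr4a1 433 and 90.8 CPM. Nr4a3, Dusp2 and Gadd45b were the other 3 called higher, on 14, 54 and 16 UMIs in tumour cells. Fos had 158 CPM in tumour and 859 CPM in normal B-like cells, and Fosb, Jun, Atf3 and Dusp1 were also called lower. Depth differed as well: the median was 2615.5 UMIs in tumour and 9817 UMIs in normal B-like cells, and 6 tumour cells reached 5000 UMIs.

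An unnamed cluster led by Ear2 held 49 tumour and 259 normal cells. All 9 macrophage and monocyte markers had a UMI in at least 25% of its cells in either library. It was left unnamed because its top 10 genes held 1 marker of another class, the dendritic marker Itgax, and 0 of its own. With looser filters, with doublets kept or with the members among the variable genes, the Ear2-led cluster was named macrophage- and monocyte-like. There 9 of 31 members were higher in tumour cells (17.3% of genes) and 11 lower (10.7% of genes). Ier3 had 1762 CPM in tumour and 199 CPM in normal cells of the cluster, Btg1 had 4168 and 1112 CPM, and Dusp5 had 603 and 82.0 CPM. Jun had 319 CPM in tumour and 1872 CPM in normal cells, Klf2 had 114 and 796 CPM, and Atf3 had 248 and 1047 CPM. The 5 neutrophil markers summed to 9750.5 CPM in its tumour cells and 262 CPM in its normal cells, and the 9 macrophage and monocyte markers to 12162 and 23510 CPM. Their part in these folds was not tested. At a finer clustering these populations came apart: 48 tumour and 6 normal cells fell in a cluster led by Arg1, and the Ear2-led cluster held 0 tumour and 127 normal cells.

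A cluster led by Ccl21a, with 125 tumour and 43 normal cells, held lymphatic endothelial markers but also the cycling genes Prc1, Mki67 and Top2a among its top 10. There 9 of 33 members were higher (10.8% of genes) and Egr2 and Klf2 were lower (18.8% of genes). Gadd45g had 223 CPM in tumour and 19.6 CPM in normal cells, Ier3 had 1127 and 338 CPM, and Klf2 had 409 and 1267 CPM. The 8 fibroblast markers summed to 18947 CPM in tumour and 3143 CPM in normal cells of this cluster. The 9 macrophage and monocyte markers summed to 111 CPM in tumour and 5696 CPM in normal cells, and the 5 neutrophil markers to 5383 and 14.0 CPM. The same mixture of cell types was therefore not compared. In normal macrophage-like cells Egr2 had 252 CPM and Klf2 had 1871 CPM, both above their levels in the normal Ccl21a-led cells (97.9 and 1267 CPM). The part of these marker differences in the folds was not tested.

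**Figure D4:**
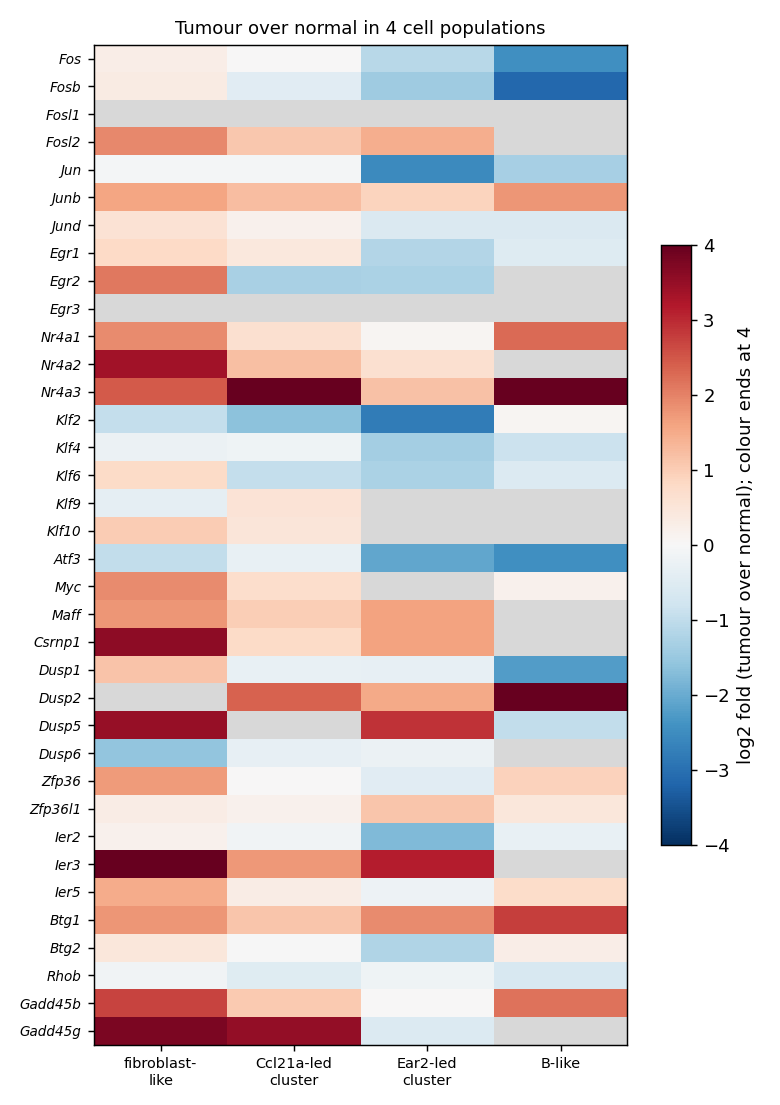
Log2 fold of tumour over normal for each member in fibroblast-like cells, the Ccl21a-led cluster, the Ear2-led cluster and B-like cells, with red for higher and blue for lower in the tumour library, colour limits at -4 and 4, and grey for members under 50 CPM in both sums. Junb, Nr4a3 and Btg1 are red in all 4 columns, while Fos runs from 0.26 in fibroblast-like cells to -2.44 in B-like cells.

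Across the 4 populations some members kept 1 direction and others did not. Of the 21 members tested in all 4, Nr4a3 and Btg1 (9.52%) were called higher in all, against 10 of the 1730 genes so tested (0.578%). These comparisons share the 2 libraries, and the 2 members were picked out after their values were seen. Junb and Gadd45b were called higher in 3 of the 4 populations and not in the Ear2-led cluster. There Junb had 3903 CPM in tumour and 2115 CPM in normal cells. With them, 4 of the 21 members (19.0%) were called higher in all populations or all but 1, against 29 of the 1730 genes (1.68%). Ier3, Fosl2 and Dusp2 were each called higher in the 3 populations where they were tested, and the share of all genes that did so was not counted. Ier3 and Fosl2 were not tested in B-like cells, and Dusp2 was not tested in fibroblast-like cells. Within the tumour library the median member percent was 3.58% in fibroblast-like, 2.10% in Ear2-led, 1.84% in Ccl21a-led, 1.51% in B-like and 1.23% in ductal-like cells (42 cells). Within the normal library it was 2.82% in macrophage-like, 1.74% in Ear2-led, 1.18% in fibroblast-like, 1.18% in endothelial-like, 0.628% in B-like and 0.612% in pericyte- and smooth-muscle-like cells. Depth differed between these populations, and thinning left out every cell under 5000 UMIs. That removed 943 of 1346 normal endothelial-like, 51 of 148 normal pericyte- and smooth-muscle-like and 46 of 52 tumour B-like cells. Of the Ear2-led cells, 12 of 49 tumour and 50 of 259 normal cells were left out. Some orders differed between the full-depth and thinned medians, which cover different sets of cells, and the part of depth was not tested. Thinned to 5000 UMIs, the tumour medians were 3.51% in fibroblast-like, 1.84% in Ear2-led, 1.86% in Ccl21a-led, 1.23% in ductal-like and 0.79% in B-like cells, the last from 6 cells. The thinned normal medians were 2.84% in macrophage-like, 2.04% in Ear2-led, 1.40% in endothelial-like, 1.24% in fibroblast-like, 1.00% in pericyte- and smooth-muscle-like and 0.62% in B-like cells. Ear2-led tumour cells were thus above Ear2-led normal cells at full depth and below them once thinned. The fibroblast-like cells had the highest median of these populations in the tumour library and not in the normal library, at full depth and thinned.

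Markers of other cells differed between the libraries in fibroblast-like cells, some lower and some higher in the tumour library. The 9 macrophage and monocyte markers summed to 16.4 CPM in tumour and 136 CPM in normal fibroblast-like cells, with Fcgr1 at 0 in the tumour sum. The 9 endothelial markers summed to 42.1 and 164 CPM with none at 0, the 6 acinar markers to 55.4 and 420.0 CPM, and the 5 adipocyte markers to 11.2 and 357 CPM with Lep at 0 in both. The 6 Schwann and neural markers summed to 168 CPM in tumour and 16.2 CPM in normal cells, the 7 ductal epithelial markers to 95.5 and 64.9 CPM, and the 8 pericyte and smooth muscle markers to 160.2 and 139 CPM. Their part in the member folds was not tested. A UMI of Xist was found in 95.1% of tumour and 33.8% of normal fibroblast-like cells, so the normal library holds cells of both sexes. Cells with a UMI of Xist and none of 4 Y-linked genes were taken as female, and the reverse as male. In the tumour library 2093 fibroblast-like cells counted as female, so sex was not matched between the libraries. The median member percent of normal cells was 1.05% in 483 female and 1.42% in 771 male cells. The sexes also held the subsets in unlike shares, with 121 of the female and 295 of the male cells Efhd1-led. Within the Gm12022-led subset the medians were 0.945% in female and 1.07% in male cells, within the Efhd1-led subset 1.69% and 2.34%, and within the Hp-led subset 3.22% and 3.60%. The part of the subsets in the pooled difference was not tested.

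Correlations between members across the cells of 1 library were mostly weak, with some stronger pairs. Over thinned counts, with cells that share a library and 1 depth, the median Spearman correlation was 0.11 over 465 pairs of 31 members in 1838 tumour cells and 0.19 over 253 pairs of 23 members in 1345 normal cells. Fos and Fosb had a correlation of 0.35 in tumour and 0.74 in normal cells, and Klf2 and Klf4 had 0.14 and 0.54. Fos and Jun had 0.62 in tumour cells, the highest pair there, and 0.58 in normal cells. In tumour cells Nr4a2 and Nr4a3 went with each other (0.42) and against Jun (-0.32 for each), and they had correlations of -0.08 and -0.04 with the sum of the other members. The 2 sets of pairs are not the same, since fewer members had enough counts in normal cells. All subsets of a library were pooled, so differences between subsets enter these correlations. Klf2 and Klf4, for example, were both called lower in Gm12022-led and both higher in Efhd1-led normal cells. The part of the subsets was not tested. The summed percent had a correlation of -0.50 with a cell's UMIs before thinning in tumour cells and 0.30 in normal cells.

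**Figure D5:**
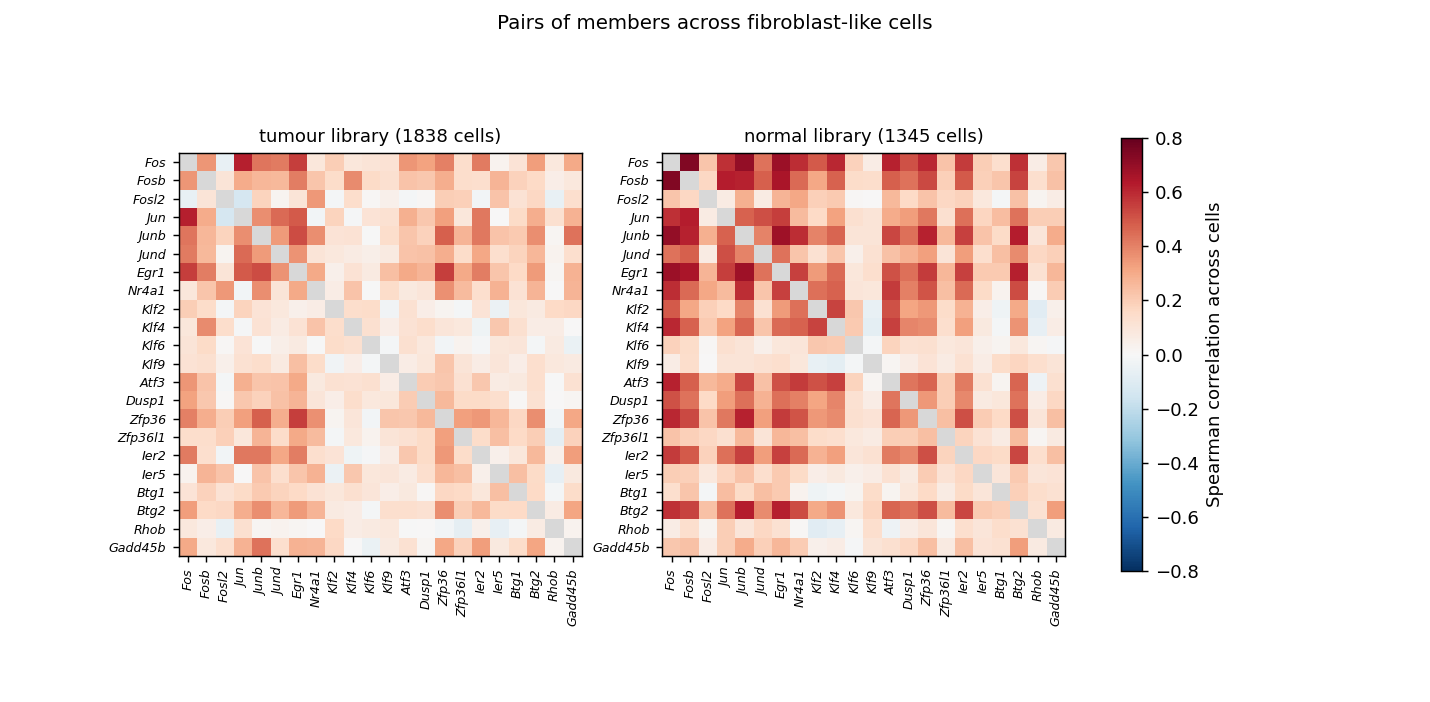
Spearman correlation across thinned fibroblast-like cells for each pair of the 22 members that had enough counts in both libraries, tumour cells on the left and normal cells on the right, with red for positive and blue for negative values and grey for a gene with itself. The block of Fos, Fosb, Junb and Egr1 is redder in normal cells, where Fos and Fosb reach 0.74, than in tumour cells, where they have 0.35.

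The non-member genes closest to the summed members were picked by the same correlation over 2836 genes in tumour and 3309 genes in normal cells. In tumour cells they were Ccnl1 (0.53), a cyclin of RNA processing, Socs3 (0.44), an inhibitor of cytokine signalling, Id3, Gsn, Apoe, Gdf10, Dcn, Zbtb20, Htra3 and Ppp1r15a. In normal cells they were Socs3 (0.55), Nfkbiz (0.46), Ppp1r15a (0.45), which ends the stress-induced block of translation, Ccnl1, Cebpb, Cxcl1, Hk2, Mt1 and Tnfaip6. The medians over all genes compared were -0.01 in tumour and -0.03 in normal cells. Matrix and secreted genes such as Dcn and Gsn appeared on the tumour list, and inflammatory genes such as Cxcl1 and Nfkbiz on the normal list.

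Other genes of the response were counted from lists, where measured means at least 20 CPM in either library and a call needs 50 CPM. All 15 heat shock genes reached 50 CPM, and 8 were called higher in tumour fibroblast-like cells and 0 lower (median log2 fold 1.02). Of the 3633 genes at that level 9.39% were called higher and 10.7% lower. The lists were chosen with earlier results of these data known, so their counts are a description only. Hspb1, a small heat shock protein, had 782 CPM in tumour and 134 CPM in normal cells, and the cochaperone Dnajb1 had 537 and 116 CPM. At the other end Dnaja1 had 485 CPM in tumour and 625 CPM in normal cells and Hsp90ab1, a cytosolic chaperone, 1760.2 and 1511.3 CPM. Of 20 other dissociation response genes, all of which reached 50 CPM, 13 were called higher and 0 lower, with a median of 1.69. Tnfaip3, a brake on NF-κB, had 175.5 CPM in tumour and 8.61 CPM in normal cells, and Nfkbia, the NF-κB inhibitor, had 993 and 133 CPM. Errfi1, an inhibitor of the EGF receptor, had 513 and 385 CPM and was not called.

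The signalling genes upstream of the members showed few calls. Of 16 ERK, JNK and p38 cascade kinases measured, 7 reached 50 CPM and 0 were called in either direction, with a median log2 fold of -0.14. Map2k3, a kinase of p38, had 51.1 CPM in tumour and 43.1 CPM in normal cells, and Map2k1 and Araf, both of the ERK cascade, had ratios of 1.12 and 0.660. Of 8 measured genes of the SRF, TCF, MRTF and CREB group 3 reached 50 CPM. Elk3, a ternary complex factor of SRF, was called higher (120 CPM in tumour and 51.7 CPM in normal cells) and Crtc3, a CREB coactivator, lower (42.5 and 113 CPM). Crem and Creb1, both of the CREB family, had ratios of 2.33 under the level for a call and 0.727. Of 11 other AP-1 and bZIP genes measured, 10 reached 50 CPM. Bach1, a repressor of antioxidant genes, was called higher, with 127 CPM in tumour and 45.9 CPM in normal cells. Atf5 was called lower, with 104 and 231 CPM. Mafk, with 44.0 and 23.5 CPM and a ratio of 1.87, lay under the level for a call.

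The negative feedback genes of MAP kinase signalling did not move 1 way. Of 8 phosphatase, Sprouty and Spred genes measured besides the members, 5 reached 50 CPM, and 2 of these were called lower and 0 higher. The median log2 fold over the 8 was -0.55. Spry1 had 98.1 CPM in tumour and 254 CPM in normal cells, and Spry4 had 37.3 and 83.3 CPM. Dusp8, a phosphatase of JNK and p38, had 27.1 and 9.80 CPM and Spred2 38.6 and 41.4 CPM. Under 20 CPM in both libraries, and so not counted, Dusp4 had 504 UMIs in tumour and 4 in normal cells (ratio 64.2, interval 24.9 to 236) and Dusp14 had 453 and 24 UMIs (ratio 9.61). These 2 are named after their values were seen. Among the member phosphatases Dusp5 was called higher and Dusp6 lower, as given above. The shares of all genes to set beside these counts are the 9.39% called higher and 10.7% called lower of the 3633 genes that reached 50 CPM. With 3 to 20 genes per list at that level, the counts for the kinase, SRF and CREB, bZIP and feedback lists are too small to read against those shares.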

How the data were processed

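The authors deposited unnormalized UMI counts for each gene and barcode, made with Cell Ranger 3.1.0 on mm10, per the submitters' processing notes (33285044 UMIs in the tumour and 36675424 in the normal library). Cells needed 500 genes, 1000 UMIs and at most 10% mitochondrial UMIs. Scrublet marked 112 normal cells (2.43%) as doublets. It marked 0.0777% of tumour cells, under 0.5%, so the 53 top-scoring cells were removed instead. The libraries were joined without batch integration and clustered in scanpy 1.11.5 (2000 variable genes without the members, 30 components, 15 neighbours, Leiden resolution 0.5). A cluster was named from at least 3 markers, each in at least 25% of its cells, and classes with at least 30 cells in each library were compared. Ratios of summed counts have exact Poisson intervals (scipy 1.17.1), and shares Clopper-Pearson intervals. A call needed a 2-fold ratio, an interval without 1 and 50 CPM in either sum. TMM factors came from edgeR 4.0.16. The ratio and the call were run on simulated Poisson sums with planted folds, and the thinning on simulated cells. Those counts held no variation beyond counting error. Filtering, doublet marking, clustering, naming and correlations were not simulated. Besides the members, the genes named are the 2 highest and 2 lowest of each list by fold and the 10 genes closest to the summed members per library, of which some are not reported here. Cebpd, 1 of 21 other dissociation genes, was not matched. Members and lists were chosen with earlier results of these data known.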

Additional observations from a re-analysis of the deposited data

Results flagged for a closer look

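Dusp1 and Egr2 were called in opposite directions in different cell populations. Dusp1 was higher in tumour fibroblast-like cells, with a log2 fold of 1.13, and lower in tumour B-like cells, with a log2 fold of -2.22 that rests on 5 UMIs in tumour and 98 in normal B-like cells. Egr2 was higher in tumour fibroblast-like cells, with a log2 fold of 2.12, and lower in tumour cells of the Ear2-led cluster (-1.28) and of the Ccl21a-led cluster (-1.29). In those clusters it had 44 and 68 UMIs in tumour cells, against 528 and 35 in normal cells. With 1 library per group the differences between populations were not tested. The 9 macrophage and monocyte markers summed to 111 CPM in tumour and 5696 CPM in normal cells of the Ccl21a-led cluster, and to 12162 and 23510 CPM in the Ear2-led cluster, while Egr2 had 252 CPM in normal macrophage-like cells. The part of these markers was not tested. The median depth in the Ccl21a-led cluster was 8847 UMIs in tumour and 5117 UMIs in normal cells, and its part was not tested.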

How the results depend on the processing

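Over all alternatives run, 17 to 20 members were called higher in tumour fibroblast-like cells. Under the same alternatives 4.86% to 15.1% of all tested genes were called higher and 5.26% to 11.3% lower. The number called lower was 1, except 3 in cells with a Pdpn UMI and 3 against normal male cells alone, where Klf2 and Atf3 joined Dusp6. The call of 9 members changed under at least 1 alternative: Atf3, Dusp1, Dusp2, Dusp5, Egr1, Fosl1, Klf10, Klf2 and Klf6. The median member percent of tumour fibroblast-like cells was 3.83% without the Lrrc15-led cells, whose cluster has Cthrc1 in its top 10, and 3.43% in cells with a Pdpn UMI. That of normal cells was 1.05% in female and 1.42% in male cells, which held the subsets in unlike shares, as given above. With the members kept among the variable genes the subset medians were 2.24% (Lrrc15), 3.54% (Thbs4), 4.24% (Hp) and 3.79% (Apod) in the tumour library and 2.40% (Efhd1) in the normal library. In the Ear2-led cluster 6 members were lower with doublets kept. At resolution 1 the tumour cells of the myeloid clusters lay mostly in one led by Arg1, with 48 tumour and 6 normal cells, where 5 were higher and 5 lower, and the Ear2-led cluster held 0 tumour cells, so this is not the same population. In the Hp-led normal subset 11 were higher under strict filters, which left 13 cells. In B-like cells 8 were lower under strict filters, which left 15 tumour cells, an alternative chosen after seeing the data, as were all those for B-like cells and the Hp-led subset and the one without Hp-led normal cells. The alternatives planned for macrophage-like cells were run on the Ear2-led cluster, since that class held 4 tumour cells. For the Ear2-led, Arg1-led, Hp-led and B-like sets, the share of all genes called was not taken under these alternatives. Their counts, some from few cells, therefore have no background to be read against. The cause of these changes was not tested. No paired analysis was possible because each group is 1 library. With 1 library a group no replicate could be left out.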
